A study of Mus musculus with 12 samples.

Results

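The T-cell receptor complex, its coreceptors and its first kinases were followed as 10 genes through RNA-seq of mouse brain. The genes were chosen by symbol and are Cd3e, Cd3d, Cd3g and Cd247, which encode the signalling chains of the receptor, Cd8a, Cd8b1 and Cd4, which encode the coreceptors, Cd2, which encodes an adhesion receptor, and Lck and Zap70, which encode tyrosine kinases. All 10 were among the 21983 genes counted and all 10 had enough reads to be tested. The brains came from wild-type C57BL/6 mice, 6 weeks old, in 3 groups of 4 libraries: mice with experimental cerebral malaria (ECM) given the antimalarial drug artesunate (treated for 4 days), mice with ECM and no such treatment, and normal control mice. The labels name no parasite, day of infection or artesunate dose. ECM is a mouse model of the brain disease that Plasmodium infection can cause. Whole brain was used, so fewer cells of a type and less RNA per cell cannot be told apart in any value below. The labels do not say that each library came from a separate animal, so the p-values measure the spread between these samples.

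A T cell recognises a peptide held by an MHC molecule through its antigen receptor chains, which have short tails and cannot signal alone. The CD3 epsilon, delta and gamma chains and the zeta chain, the product of Cd247, carry the tyrosine motifs that start the signal. CD8 binds MHC class I and CD4 binds MHC class II, and each brings the kinase LCK to the engaged receptor. LCK phosphorylates the tyrosine motifs, ZAP-70 docks on them and passes the signal on, and CD2 strengthens contact with the other cell. CD8+ T cells that gather in brain vessels are known from this mouse model as a requirement for the disease.

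The libraries held 13342177 to 18886822 reads assigned to genes. Mitochondrially encoded genes took 4.74 to 5.27% of reads in treated ECM, 5.54 to 15.2% in ECM and 5.69 to 10.7% in control, and ECM 2, ECM 3 and control 4 stood highest at 15.2, 13.2 and 10.7%. Counts of called genes are given below with and without them. Levels are CPM, counts scaled to library size with TMM factors, and a call means an adjusted p below 0.05 in edgeR's quasi-likelihood test. A library with 0 reads of a gene allows a level of up to 0.155 to 0.240 CPM (3 reads over its scaled size), which covers counting error only.

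The CD3 genes lie together on mouse chromosome 9 (build mm10). Cd3g (44969572 to 44980431, minus strand) and Cd3d (44981786 to 44987339, plus strand) start 1355 bases apart and are read away from each other, and Cd3e (44998740 to 45009627, minus strand) follows. Cd247 lies on chromosome 1 (165788681 to 165877277, plus strand), as does Zap70 (36761798 to 36782818, plus strand). Cd8b1 (71322788 to 71337494, plus strand), Cd8a (71373427 to 71379173, plus strand) and Cd4 (124864692 to 124888221, minus strand) lie on chromosome 6. Lck is on chromosome 4 (129548344 to 129573641, minus strand) and Cd2 on chromosome 3 (101275899 to 101287939, minus strand).

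Promoter windows from RefSeq (GRCm38.p6), from 250 bases before to 50 bases after a start site, matched 7 of the 10 genes with 10 windows. Those of the 4 signalling chains are shown because these 4 chains were all highest in ECM, and those of both starts of Lck because Lck also had reads in every control. The windows of Cd8a and Zap70 are not shown, although both genes were also highest in ECM and Zap70 had reads in every control. They are written 5′ to 3′ on the strand of the gene. Capitals mark 4 short motifs searched on both strands: TGTGGT, the RUNX core, AGGAAG, the ETS core, CTTTGA, the TCF/LEF core, and TATAAA, the TATA box.

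Cd3g, chr9:44980382-44980681, minus strand: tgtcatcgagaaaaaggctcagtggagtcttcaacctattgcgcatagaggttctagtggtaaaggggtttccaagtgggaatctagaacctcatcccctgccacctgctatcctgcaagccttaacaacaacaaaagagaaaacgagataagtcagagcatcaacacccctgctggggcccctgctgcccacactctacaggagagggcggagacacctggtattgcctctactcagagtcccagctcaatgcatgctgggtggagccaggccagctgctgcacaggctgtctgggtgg

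Cd3d, chr9:44981536-44981835, plus strand: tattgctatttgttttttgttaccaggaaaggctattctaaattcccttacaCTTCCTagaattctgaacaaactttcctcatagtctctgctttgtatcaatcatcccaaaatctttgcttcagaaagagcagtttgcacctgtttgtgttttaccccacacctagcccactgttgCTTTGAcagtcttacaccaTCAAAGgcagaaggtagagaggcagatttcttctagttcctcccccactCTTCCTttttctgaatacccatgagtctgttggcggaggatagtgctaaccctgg

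Cd3e, chr9:45009562-45009861, minus strand: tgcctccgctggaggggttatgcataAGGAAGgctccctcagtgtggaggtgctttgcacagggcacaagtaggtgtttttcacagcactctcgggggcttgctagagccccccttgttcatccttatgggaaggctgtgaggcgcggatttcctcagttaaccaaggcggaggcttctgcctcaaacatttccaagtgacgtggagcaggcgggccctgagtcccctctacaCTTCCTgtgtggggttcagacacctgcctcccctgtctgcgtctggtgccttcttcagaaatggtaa

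Cd247, chr1:165788431-165788730, plus strand: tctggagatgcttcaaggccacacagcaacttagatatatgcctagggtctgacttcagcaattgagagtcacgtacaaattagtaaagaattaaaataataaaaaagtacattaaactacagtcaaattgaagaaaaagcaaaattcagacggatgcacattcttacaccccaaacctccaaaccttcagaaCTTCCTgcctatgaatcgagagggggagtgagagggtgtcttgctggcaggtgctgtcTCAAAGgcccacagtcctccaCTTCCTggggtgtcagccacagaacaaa

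Lck, upstream start, chr4:129573592-129573891, minus strand: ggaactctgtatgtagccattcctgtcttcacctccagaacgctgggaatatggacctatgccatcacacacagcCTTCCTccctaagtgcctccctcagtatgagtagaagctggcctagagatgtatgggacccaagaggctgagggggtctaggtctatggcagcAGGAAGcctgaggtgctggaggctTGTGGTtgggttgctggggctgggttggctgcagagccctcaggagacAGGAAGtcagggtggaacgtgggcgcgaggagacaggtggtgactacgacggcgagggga

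Lck, downstream start, chr4:129558323-129558622, minus strand: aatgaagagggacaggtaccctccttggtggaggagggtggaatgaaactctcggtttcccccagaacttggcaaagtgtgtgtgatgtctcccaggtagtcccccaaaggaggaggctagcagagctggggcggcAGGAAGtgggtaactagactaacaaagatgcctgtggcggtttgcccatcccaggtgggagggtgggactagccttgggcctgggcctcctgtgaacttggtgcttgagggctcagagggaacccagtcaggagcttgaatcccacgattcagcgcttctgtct

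AGGAAG or its reverse complement CTTCCT was in 7 of the 10 windows, against 35.4% of 32851 windows of all genes. Each window above other than that of Cd3g held it. Of the windows not shown, that of Cd8a and the most downstream of Zap70 did not. CTTTGA or TCAAAG was in 3 of the 10 windows (16% of all windows), among them those of Cd3d and Cd247. TGTGGT or ACCACA was in 2 of the 10 (16.8% of all windows), among them the upstream start of Lck, and TATAAA or TTTATA in 0 of the 10 (13.6% of all windows). The motifs do not overlap in these windows. The windows were drawn from 7 genes, of which Lck has 2 and Zap70 3, and a match is only a description of the letters.

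The invariant signalling chains were nearly absent from control brain, had 21 to 92 reads in each ECM library and had 3 to 22 reads in each treated library. Cd3e, the epsilon chain, had 16, 12, 20 and 22 reads in treated ECM 1 to 4, 43, 68, 47 and 58 in ECM 1 to 4, and 0, 0, 2 and 3 in control 1 to 4. The 3 groups did not overlap, and ECM 2 was the highest library. Cd3e averaged 1.07 ± 0.299 CPM in treated ECM, 3.85 ± 1.06 CPM in ECM and 0.0871 ± 0.103 CPM in control (SD, n = 4 each). It was called higher in ECM than in control (log2 fold change 5.44 ± 0.61 SE, adjusted p = 4.71e-05, edgeR), lower in treated ECM than in ECM (-1.83 ± 0.44, adjusted p = 0.0242) and higher in treated ECM than in control (3.61 ± 0.64, adjusted p = 0.00629).

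Cd3d, the delta chain, had 12, 6, 18 and 22 reads in treated ECM 1 to 4, 39, 92, 27 and 70 in ECM 1 to 4, and 0, 8, 0 and 0 in control 1 to 4. All control reads came from control 2, whose 0.495 CPM lay above the 0.402 CPM of treated ECM 2, so these groups overlapped. Cd3d was called higher in ECM than in control (log2 fold change 4.90 ± 0.86, adjusted p = 0.00192, edgeR), with means of 4.00 ± 2.25 CPM in ECM and 0.124 ± 0.247 CPM in control (SD, n = 4 each). Treated ECM averaged 0.889 ± 0.455 CPM and differed from ECM by -2.16 ± 0.68 on the log2 scale without passing the test (adjusted p = 0.0648, edgeR). The authors' deposited table gives an adjusted p of 0.000336 for that comparison, with a log2 fold change of -2.16, and edgeR called it without control 2 (0.0306) or control 4 (0.0383). Against control, treated ECM differed by 2.74 ± 0.90 on the log2 scale (adjusted p = 0.239, edgeR). Without control 2, when 0 control reads were left, the call was made (adjusted p = 0.0179).

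Cd3g, the gamma chain, had 5, 3, 4 and 17 reads in treated ECM 1 to 4, 38, 44, 58 and 60 in ECM 1 to 4, and 0 in each control. Treated ECM 4 stood apart from its group with 1.07 CPM, and the 3 groups did not overlap. The level in ECM was at least 73.3-fold higher than in control, and in treated ECM at least 9.33-fold higher, each against 3 reads over all controls. Both calls were made (adjusted p = 0.000129 and 0.0240, edgeR). The call in treated ECM against control was lost without control 4, ECM 2 and ECM 3 (adjusted p = 0.0732) and when control 1, control 2, control 3 or ECM 2 alone was left out (0.0525 to 0.0630). Treated ECM at 0.447 ± 0.419 CPM was called lower than ECM at 3.52 ± 0.782 CPM (SD, n = 4 each), with a log2 fold change of -2.96 ± 0.52 (adjusted p = 0.00837).

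Cd247, the zeta chain, had 19, 9, 13 and 13 reads in treated ECM 1 to 4, 24, 27, 21 and 71 in ECM 1 to 4, and 2, 2, 0 and 3 in control 1 to 4. The groups did not overlap, although treated ECM 1 at 0.989 CPM and ECM 3 at 1.68 CPM were close beside the 3.67 CPM of ECM 4. Cd247 was called higher in ECM than in control (log2 fold change 4.32 ± 0.52, adjusted p = 8.26e-05, edgeR), lower in treated ECM than in ECM (-1.52 ± 0.40, adjusted p = 0.0350) and higher in treated ECM than in control (2.80 ± 0.54, adjusted p = 0.0122). The last call was lost without control 1 (adjusted p = 0.0553). Cd247 shares 3007 exonic bases with Pou2f1 on the opposite strand, a gene with 3679 reads over the 12 libraries, and the kit is not described in the labels as strand-specific, so its reads are uncertain. Cd3e shares 135 exonic bases with the antisense gene Gm48719.

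**Figure D1:**
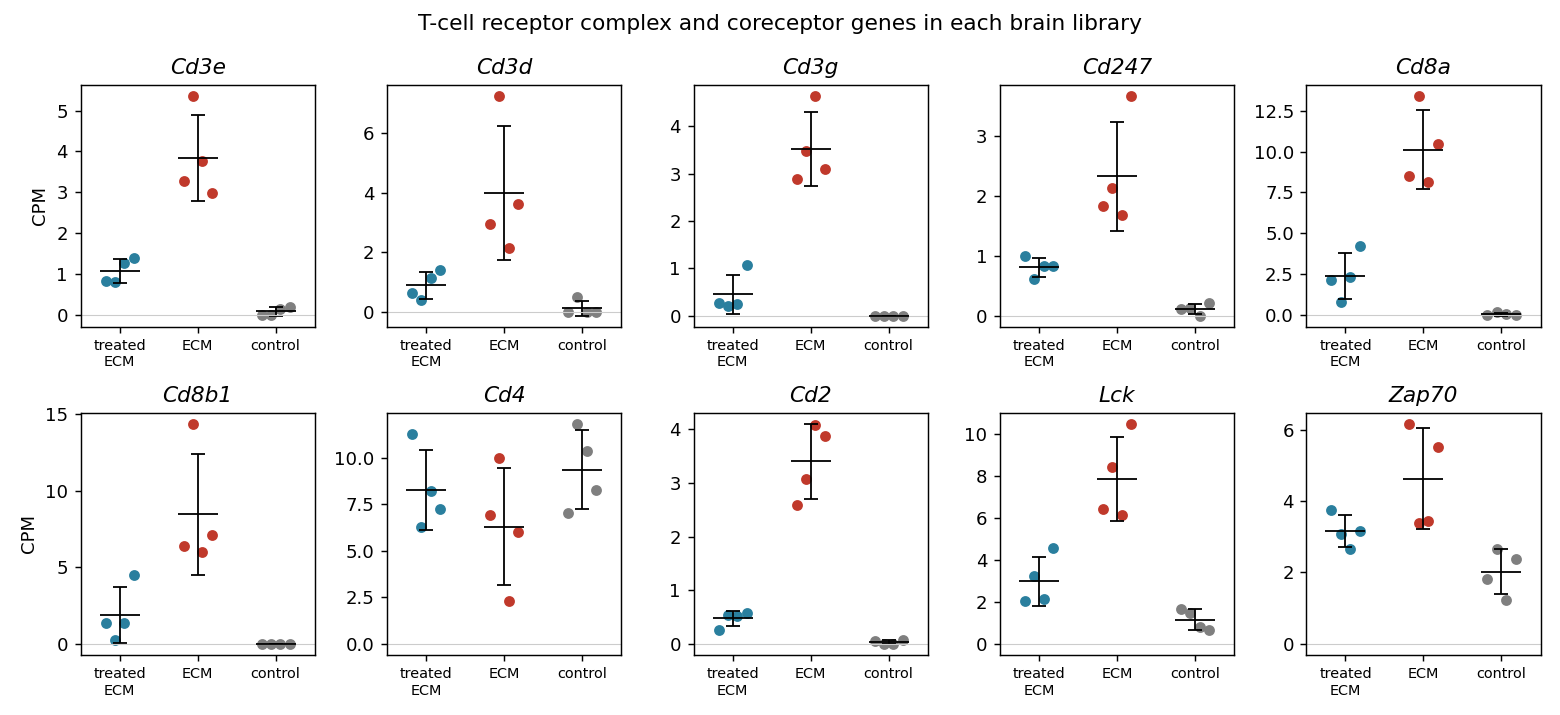
Level of each of the 10 genes in CPM (vertical axes, each with its own scale) in the 4 treated ECM, 4 ECM and 4 control libraries (points), with the mean (wide line) and SD (bars). For 9 genes every ECM library lies above every control library, and Cd4 overlaps across all 3 groups.

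The 2 chains of CD8 had high levels in ECM, whereas Cd4 overlapped between all groups. Cd8a, the alpha chain, had 41, 12, 37 and 67 reads in treated ECM 1 to 4, 112, 170, 102 and 202 in ECM 1 to 4, and 0, 3, 1 and 0 in control 1 to 4. The groups did not overlap, with 4 control reads in all against 157 in treated ECM and 586 in ECM. Cd8a was called in each comparison: higher in ECM than in control (log2 fold change 7.15 ± 0.69, adjusted p = 1.36e-05, edgeR), lower in treated ECM than in ECM (-2.08 ± 0.46, adjusted p = 0.0148), and higher in treated ECM than in control (5.07 ± 0.71, adjusted p = 0.00108).

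Cd8b1, the beta chain, which pairs with alpha on conventional cytotoxic T cells, had 26, 4, 21 and 71 reads in treated ECM 1 to 4, 84, 182, 75 and 138 in ECM 1 to 4, and 0 in each control. ECM 2 at 14.3 CPM stood apart from the other ECM libraries at 6.00 to 7.13 CPM, treated ECM ran from 0.268 CPM in library 2 to 4.49 CPM in library 4, and no groups overlapped. Against 3 reads over all controls, treated ECM was at least 39.2-fold higher than control (adjusted p = 0.0129, edgeR) and ECM at least 176-fold higher (adjusted p = 0.000421). Treated ECM at 1.86 ± 1.82 CPM and ECM at 8.46 ± 3.95 CPM (SD, n = 4 each) differed by -2.18 ± 0.64 on the log2 scale without passing the test (adjusted p = 0.0616). DESeq2 called that difference (adjusted p = 0.00645), as did edgeR without treated ECM 4 (0.0205) or control 4 (0.0395), and the authors' deposited table gives an adjusted p of 0.00283.

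Cd4 had 217, 94, 130 and 115 reads in treated ECM 1 to 4, 91, 127, 29 and 116 in ECM 1 to 4, and 132, 191, 143 and 122 in control 1 to 4. The groups overlapped throughout, from 2.32 CPM in ECM 3 to 11.8 CPM in control 2. ECM at 6.31 ± 3.17 CPM and control at 9.38 ± 2.14 CPM (SD, n = 4 each) differed by -0.57 on the log2 scale (95% interval -1.33 to 0.19, adjusted p = 0.383, edgeR). The interval for treated ECM against ECM was -0.37 to 1.15 (adjusted p = 0.501), and for treated ECM against control -0.93 to 0.57 (adjusted p = 0.825). In ECM against control the upper bound of 0.19 lay below the lower 95% bounds of the CD3 and CD8 chains with control reads, the lowest of which was 3.05 (Cd3d). These folds start from unlike levels, since control brain held 588 reads of Cd4, 5 of Cd3e and 4 of Cd8a. Whether CD4 T cells were gained cannot be read from the Cd4 fold, because a small gain would be hidden in that control level.

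Cd2, the receptor for CD48 on neighbouring cells, had 5, 8, 8 and 9 reads in treated ECM 1 to 4, 34, 39, 51 and 75 in ECM 1 to 4, and 1, 0, 0 and 1 in control 1 to 4. The 3 groups did not overlap, and the treated libraries kept within 0.260 to 0.569 CPM against 2.58 to 4.08 CPM in ECM. With 2 control reads in all, the ratio to control was 109 in ECM (counting interval 29.9 to 909) and 14.5 in treated ECM (3.67 to 125). Cd2 was called in all comparisons, and treated ECM lay below ECM by a log2 fold change of -2.86 ± 0.38 (adjusted p = 0.00113, edgeR).

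Lck and Zap70 were the members other than Cd4 that had reads in every control library. Lck had 39, 48, 34 and 72 reads in treated ECM 1 to 4, 85, 107, 77 and 203 in ECM 1 to 4, and 31, 24, 11 and 10 in control 1 to 4. Its groups did not overlap, with 2.99 ± 1.17 CPM in treated ECM, 7.88 ± 2.01 CPM in ECM and 1.15 ± 0.488 CPM in control (SD, n = 4 each). Lck was called higher in ECM than in control (log2 fold change 2.75 ± 0.37, adjusted p = 0.000199, edgeR) and lower in treated ECM than in ECM (-1.40 ± 0.34, adjusted p = 0.0247). Treated ECM against control, at 1.35 ± 0.36, did not pass (adjusted p = 0.102), whereas the authors' deposited table gives an adjusted p of 0.0314.

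Zap70 had 72, 46, 42 and 50 reads in treated ECM 1 to 4, 81, 43, 43 and 107 in ECM 1 to 4, and 34, 43, 17 and 35 in control 1 to 4. Every ECM library lay above every control, by as little as 3.39 CPM in ECM 2 against 2.66 CPM in control 2, and treated ECM overlapped both groups. The difference between ECM and control was the smallest called among the members (log2 fold change 1.19 ± 0.30, adjusted p = 0.0200, edgeR). It lost its call when ECM 1, ECM 4, control 1 or control 3 was left out in turn (adjusted p up to 0.0705). Zap70 in treated ECM was 3.16 ± 0.448 CPM and did not pass against ECM at 4.63 ± 1.42 CPM (-0.55 ± 0.29, adjusted p = 0.248) or control at 2.02 ± 0.629 CPM (0.64 ± 0.30, adjusted p = 0.436; SD, n = 4 each).

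Counted over the 10 genes, ECM against control gave 9 called higher and 0 lower, in a comparison where 7.3% of 14624 tested genes were called higher and 2.91% lower. The median log2 fold change of the 10 was 5.17, also with Cd3g and Cd8b1 set at their bounds, against 0.000528 over all genes tested. Libraries of the 2 groups did not overlap in 9 of the 10, higher in ECM, against 9.05% of all genes (5.22% did not overlap and were lower). Without control 4, ECM 2 and ECM 3, 9 of the 10 were called higher, where 10.5% of 14820 genes were.

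Treated ECM against ECM gave 6 called lower (Cd3e, Cd3g, Cd247, Cd8a, Cd2 and Lck) and 0 higher, where 5.7% of all genes were called lower and 3.05% higher. Libraries did not overlap in 8 of the 10, lower in treated ECM, against 11.4% of all genes (10.5% higher), and the median log2 fold change was -1.96 against -0.0115 over all genes. Without control 4, ECM 2 and ECM 3, 6 were called lower, where 8.37% of all genes were. The count was sensitive to single libraries, with 2 called without treated ECM 1 or treated ECM 3, 3 without treated ECM 2 and 8 without control 4. The count over all genes moved with it, with 833 called lower in the full fit, 378 without treated ECM 1, 388 without treated ECM 3, 366 without treated ECM 2 and 1311 without control 4. Cd2 and Cd3g, with the largest differences, were called in every omission of 1 library. Cd247 lost its call without any treated library, ECM 1, ECM 4, control 1 or control 2 (adjusted p up to 0.120), and Cd3e without any treated library or ECM 2 (up to 0.0907). Lck lost it without treated ECM 1, 2 or 3 (up to 0.0836) and Cd8a without treated ECM 1 or 3 (up to 0.0550).

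Treated ECM against control gave 6 called higher (Cd3e, Cd3g, Cd247, Cd8a, Cd8b1 and Cd2) and 0 lower, where 1.96% of all genes were called higher and 0.0547% lower. Libraries did not overlap in 7 of the 10, higher in treated ECM, against 10.8% of all genes (8.3% lower). The median log2 fold change was 3.19, or 3.01 with Cd3g and Cd8b1 at their bounds, against 0.00637 over all genes, and 5 of the 10 were called without control 4, ECM 2 and ECM 3, where 2.89% of all genes were. In a fit of treated ECM and control alone, 5 of the 10 had too few reads to be tested and 2 were called. The comparisons share their groups, so their values are set side by side and are not independent of each other.

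**Figure D2:**
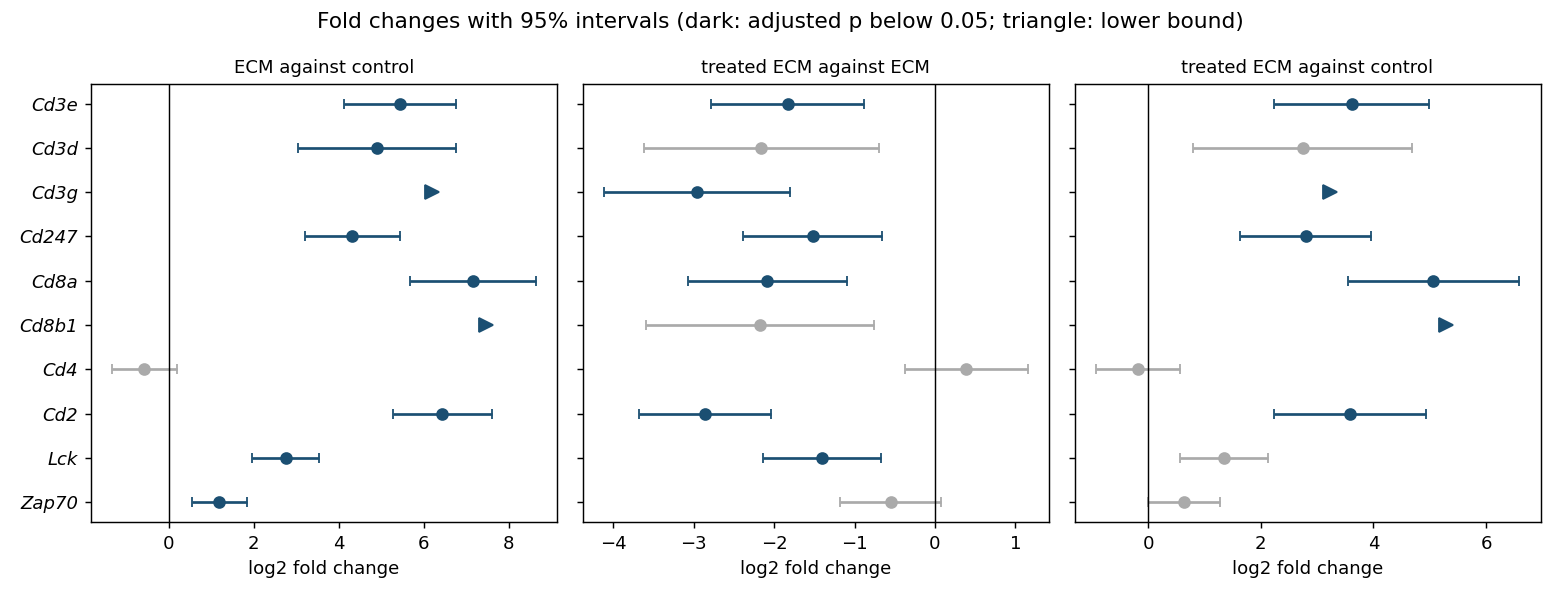
Log2 fold change of each gene with its 95% interval in the 3 comparisons, 1 panel each, dark where the adjusted p was below 0.05, with triangles at the lower bound for genes with 0 control reads. Cd4 crosses 0 in all 3 panels, and the difference of Cd2 between treated ECM and ECM (-2.86) has a narrow interval.

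Within the treated group the libraries ranked alike for several members. Treated ECM 2 was the lowest of its group in Cd3e, Cd3d, Cd3g, Cd247, Cd8a and Cd8b1, and treated ECM 4 the highest in Cd3e, Cd3d, Cd3g, Cd8a, Cd8b1, Cd2 and Lck. The SD in treated ECM was close to the mean for Cd8b1 (1.86 ± 1.82 CPM) and Cd3g (0.447 ± 0.419 CPM) and well below it for Zap70 (3.16 ± 0.448 CPM). In ECM, library 2 was the highest in Cd3e, Cd3d, Cd8a, Cd8b1 and Cd4, while library 3 was the highest in Cd3g and Cd2 and library 4 in Cd247 and Lck. Genes measured in 1 library share its depth and scaling.

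Ratios between members within a library do not depend on library scaling, and 6 were compared between treated ECM and ECM as log2 of the reads with 0.5 added. Per Cd3e read, Zap70 reads numbered 4.39, 3.72, 2.07 and 2.24 in treated ECM 1 to 4 and 1.87, 0.635, 0.916 and 1.84 in ECM 1 to 4. All 4 treated ratios lay above all 4 ECM ratios, with a log2 difference of 1.31 (exact two-sided permutation test, p = 0.0286, adjusted p = 0.114 over 6 ratios). Control brain held 129 reads of Zap70 and 5 of Cd3e, so the ratio rises as Cd3e falls toward its control level. How much of the difference came from Zap70 reads present without ECM was not tested. The p of 0.0286 is the smallest 4 against 4 libraries allow, so the adjusted value of a single ratio could not have passed.

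Cd3g per Cd3e had a mean log2 ratio of -1.49 ± 0.793 in treated ECM and -0.11 ± 0.392 in ECM (SD, n = 4 each), a difference of -1.38 (exact permutation test, p = 0.0571, adjusted p = 0.114). Treated ECM 4, at -0.36, was the treated library that overlapped ECM. Cd2 per Cd3e had a mean log2 ratio of -1.16 ± 0.434 in treated ECM and -0.16 ± 0.513 in ECM (SD, n = 4 each; exact permutation test, p = 0.0571, adjusted p = 0.114). Cd3d per Cd3e differed by -0.32, Cd8a per Cd3e by -0.45 and Cd8b1 per Cd8a by -0.38 (exact permutation tests, adjusted p = 0.343 each). None of the 6 ratios passed after adjustment.

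**Figure D3:**
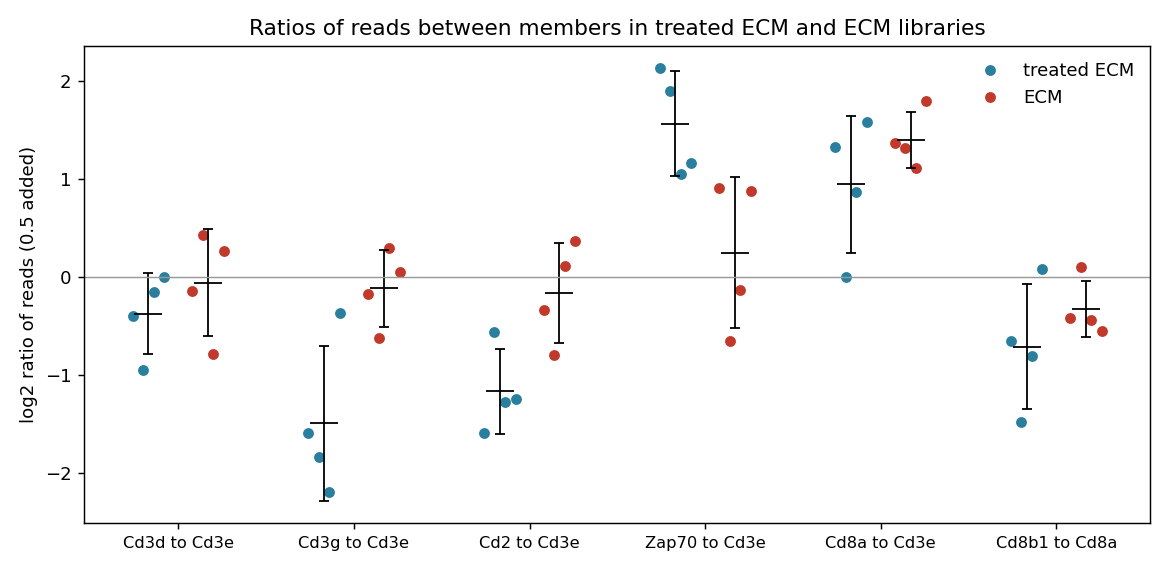
Log2 ratio of reads between pairs of members (vertical axis, 0.5 read added to each count) in 4 treated ECM and 4 ECM libraries (points), with the mean and SD. Zap70 to Cd3e lies higher in all treated libraries, and Cd3g to Cd3e and Cd2 to Cd3e lie lower with 1 treated library overlapping ECM in each.

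Compared per length, as CPM per kilobase of merged exons, the order of the genes differed between the groups. In treated ECM, Cd4 came first at 2.05 ± 0.536, then Cd8b1 (1.25 ± 1.23), Zap70 (1.06 ± 0.150) and Lck (1.02 ± 0.399), each overlapping the next. In ECM, Cd8b1 came first at 5.71 ± 2.66 CPM per kilobase, above Cd8a (2.78 ± 0.660) in every library, and Cd8a, Lck (2.69 ± 0.685), Cd3d (2.20 ± 1.24), Cd2 (1.95 ± 0.401), Cd4 (1.56 ± 0.785) and Zap70 (1.55 ± 0.476) overlapped from each to the next. In control, Cd4 stood alone at 2.33 ± 0.530 CPM per kilobase, Zap70 (0.675 ± 0.210) and Lck (0.394 ± 0.167) followed, and the rest were at 0.0682 or less (SD, n = 4 each). With the longest coding transcript as the length, Cd4 kept its first place in control (3.02) and Cd8b1 in ECM (5.71), while the order of the CD3 chains in ECM turned to Cd3g, Cd3e, Cd3d, so no order among them is given.

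Genes that carry or restrain the signal inward from the receptor were summarised as a list of 38, of which 34 were tested. In ECM against control 19 were called higher and 0 lower (median log2 fold change 1.16). In treated ECM against ECM 13 were called lower and 0 higher (-0.59), and in treated ECM against control 3 were called higher, Lat, Ptprc and Ptpn6 (median 0.28). Without control 4, ECM 2 and ECM 3 these counts were 17 higher, 12 lower and 4 higher. Of all genes tested, 7.3% were called higher in ECM than in control and 5.7% lower in treated ECM than in ECM. In treated ECM against control 1.96% were called higher, and these shares also apply to the lists below. Some genes called in ECM against control had many control reads (Ptprc 335, Plcg2 287 and Vav1 226), and others few (Lat 6 and Themis 2). Lat, the membrane scaffold that ZAP-70 phosphorylates, averaged 1.33 ± 0.612 CPM in treated ECM, 5.43 ± 1.28 CPM in ECM and 0.0927 ± 0.0270 CPM in control (SD, n = 4 each). Lat was called in all 3 comparisons (adjusted p = 2.20e-06 in ECM against control, 0.00302 in treated ECM against ECM and 0.000374 in treated ECM against control, edgeR).

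Themis, a T-cell protein that sets the strength of receptor signals, averaged 0.211 ± 0.106 CPM in treated ECM and 2.56 ± 1.15 CPM in ECM (SD, n = 4 each; log2 fold change -3.54 ± 0.50, adjusted p = 0.00161, edgeR). Sh2d2a, an adaptor that binds LCK, averaged 0.700 ± 0.451 CPM in treated ECM and 4.64 ± 2.36 CPM in ECM (-2.74 ± 0.62, adjusted p = 0.0176). Both had been called higher in ECM than in control, where Themis averaged 0.0303 CPM and Sh2d2a 0.0497 CPM. Fyn, a kinase related to LCK that is also abundant in brain, was at 154, 157 and 158 CPM in treated ECM, ECM and control and was not called. Ptprc, which encodes the CD45 phosphatase of all leukocytes, averaged 16.2 ± 4.75 CPM in treated ECM against 5.35 ± 1.37 CPM in control (1.60 ± 0.24, adjusted p = 0.00205).

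A list of 23 T-cell surface and costimulation genes, 20 of them tested, had 17 called higher and 0 lower in ECM against control (median log2 fold change 3.16). In treated ECM against ECM 8 were called lower and 0 higher (-1.75), and in treated ECM against control 4 were called higher, Cd69, Il2rb, Il2rg and Spn (median 1.31). Without the same 3 libraries these counts were 15 higher, 8 lower and 5 higher. Cd69, an early activation marker, averaged 0.320 ± 0.104 CPM in treated ECM and 2.24 ± 1.11 CPM in ECM (SD, n = 4 each; -2.76 ± 0.52, adjusted p = 0.0116, edgeR), with 0 control reads. Icos, an inducible costimulator, averaged 0.0576 ± 0.0430 CPM in treated ECM and 1.23 ± 0.641 CPM in ECM (-4.17 ± 0.74, adjusted p = 0.00513). Il2rb, the beta chain of the interleukin-2 and interleukin-15 receptors, averaged 3.46 ± 1.49 CPM in treated ECM and 0.214 ± 0.156 CPM in control (3.93 ± 0.52, adjusted p = 0.000670).

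Of 17 lineage transcription factors of T cells, 16 were tested. In ECM against control 3 were called higher (Runx3, Runx1 and Ets1) and 1 lower (Bcl11b), with a median of 0.20. Runx3, which sets the CD8 lineage, averaged 0.400 ± 0.0615 CPM in treated ECM and 1.39 ± 0.408 CPM in ECM (SD, n = 4 each; log2 fold change -1.77 ± 0.48, adjusted p = 0.0384, edgeR), against 0.0731 ± 0.0903 CPM in control. Zbtb7b, which sets the CD4 lineage, averaged 27.0 CPM in treated ECM and 18.9 CPM in control and was called in no comparison. It had 1780 reads in treated ECM, 1230 in ECM and 1215 in control. As for Cd4, a small gain would be hidden in that control level, so whether CD4 T cells were gained cannot be read from Zbtb7b. Which cells its reads came from was not tested. In treated ECM against ECM 4 were called lower (Runx3, Runx1, Id2 and Ets1) and 1 higher (Bcl11b), and in treated ECM against control 0 were called. Without control 4, ECM 2 and ECM 3, 4 were higher and 1 lower in ECM than in control, 1 higher and 3 lower in treated ECM than in ECM, and 1 higher in treated ECM than in control. Bcl11b, Id2 and Ets1 had 88.8, 125 and 11.6 CPM in control brain, and Bcl11b is also known as a marker of striatal neurons. The constant genes of the antigen receptor alpha and beta chains, Trac, Trbc1 and Trbc2, were not among the genes counted, so these chains were not analysed here.

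The tested natural killer cell markers and most monocyte markers were called in the same directions as most of the T-cell genes. The summed level of 10 T-cell markers, which are the members, was 16.2 to 28.9 CPM in treated ECM, 42.4 to 70.9 CPM in ECM and 10.7 to 16.8 CPM in control. Cd4 alone averaged 8.27, 6.31 and 9.38 CPM in these groups, so it made up most of the control sum. Of 9 natural killer cell markers 4 were tested: Klrd1, Klrk1, Nkg7 and Fcer1g. All 4 were called higher in ECM than in control and lower in treated ECM than in ECM (4 in each without control 4, ECM 2 and ECM 3). Which cells the reads of these 4 genes came from was not tested. The list of 9 summed to 12.4 to 24.7 CPM in treated ECM, 38.8 to 80.8 CPM in ECM and 6.51 to 8.86 CPM in control, with Ncr1 and Klra4 at 0 reads in control. Fcer1g alone averaged 14.2, 34.0 and 7.33 CPM in these groups. Of the markers not tested, Ncr1 had 8 reads in treated ECM against 3 in ECM, and Klre1 25 against 5. Klrb1c (7 against 16), Klra8 (6 against 8) and Klra4 (8 against 13) had fewer in treated ECM. Nkg7, a granule protein of cytotoxic cells that T cells also express, averaged 2.60 ± 1.56 CPM in treated ECM and 0.0155 ± 0.0309 CPM in control (SD, n = 4 each; log2 fold change 6.78 ± 0.86, adjusted p = 0.000444, edgeR). The part of natural killer cells in the levels of Cd247, Cd2, Lck and Zap70, genes that those cells also express, was not tested.

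Of 11 monocyte and macrophage markers, 9 were called higher in ECM than in control, lower in treated ECM than in ECM, and higher in treated ECM than in control. Without control 4, ECM 2 and ECM 3 these counts were 9, 7 and 9. Their summed level was 54.1 to 109 CPM in treated ECM, 192 to 428 CPM in ECM and 20.7 to 24.1 CPM in control. Of 8 microglia markers 3 were called lower in ECM than in control (Sall1, Gpr34 and Fcrls), and 1, Fcrls, higher in treated ECM than in ECM (3 and 2 without the same 3 libraries). Their sum was 217 to 304 CPM in treated ECM, 153 to 287 CPM in ECM and 284 to 299 CPM in control. ECM 3 held both the lowest microglia sum and the lowest Cd4 level of all 12 libraries. Treated ECM 2 held the highest microglia sum of the 12 (304 CPM) but the lowest Cd4 level of its group (6.30 CPM). Whether monocytes or microglia take part in the Cd4 level was not tested. B-cell markers summed to 0.823 to 2.48 CPM in treated ECM, 1.73 to 5.60 CPM in ECM and 1.09 to 3.74 CPM in control, with 0 of 1 tested called, and of 8 neuron markers 0 were called (1 lower in ECM without control 4, ECM 2 and ECM 3).

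**Figure D4:**
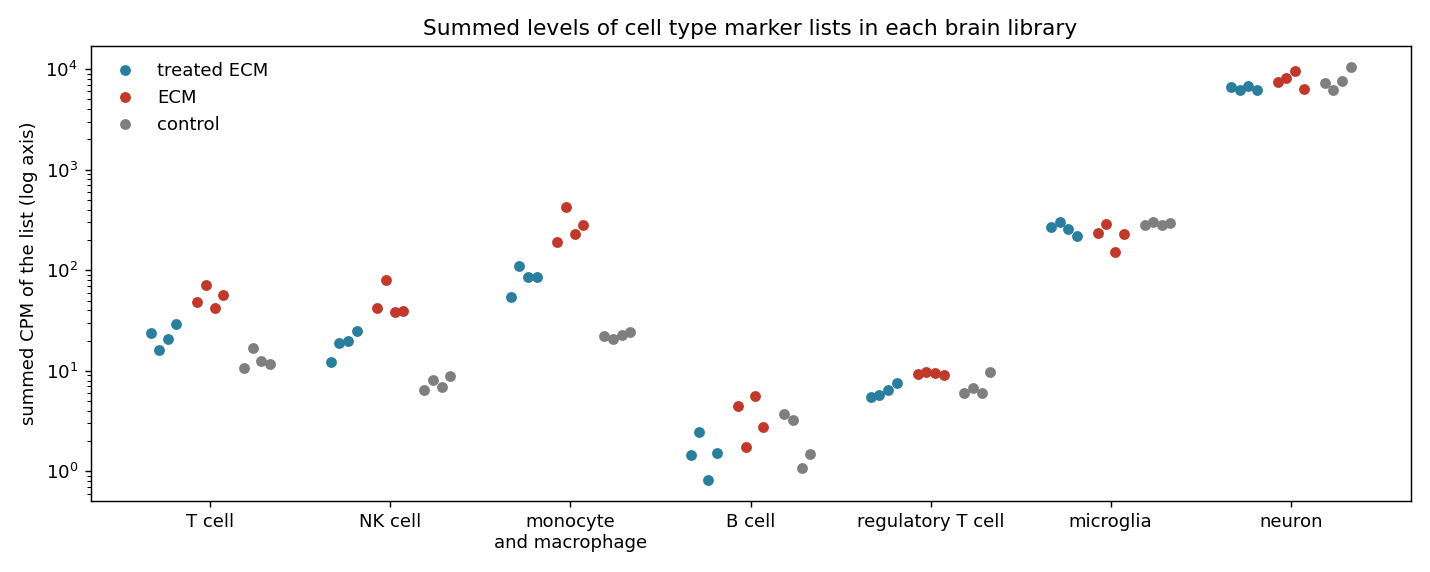
Summed CPM of marker lists (log axis) in 4 treated ECM, 4 ECM and 4 control libraries (points). T-cell, natural killer cell and monocyte sums are higher in every ECM library than in every treated and control library, while neuron and microglia sums overlap between groups.

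Regulatory T-cell markers gave counts too low for most tests. Foxp3, the lineage factor, had 12 reads in treated ECM, 19 in ECM and 14 in control over 4 libraries each and was not tested. Ctla4, an inhibitory receptor of activated and regulatory T cells, had 3 reads in treated ECM, 107 in ECM and 0 in control and was not tested either. Of 2 tested, Il2ra, the alpha chain of the interleukin-2 receptor, was called higher in ECM than in control, and 0 were called without control 4, ECM 2 and ECM 3.

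Among 987 genes called higher in ECM, the 4 whose profiles over the 8 treated ECM and ECM libraries, each centred on its own mean, lay nearest to the mean centred profile of Cd3e, Cd3d and Cd3g were Apod, Parp3, Slfn4 and Birc3, with mean absolute differences of 0.150 to 0.172 on the log2 scale with 0.5 CPM added. Cd3e itself, which is part of that mean, lay at 0.173, Cd8a at 0.219, Zap70 at 0.649 and Cd4 at 1.12. Apod, a lipid-binding protein of glia and other cells, was at 259 ± 42.4 CPM in treated ECM, 949 ± 345 CPM in ECM and 244 ± 40.1 CPM in control (SD, n = 4 each). The likeness is a description over 8 libraries that fall into 2 groups.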

How the data were processed

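Brains had been kept in RNAlater and RNA extracted with Trizol, per the labels' protocols, and libraries made with a NEBNext Ultra kit. The authors' read counts per gene were made with Trimmomatic, FastQC, STAR and HTSeq on mm10, per the submitters' processing notes, whose versions are not given there. The count table was deposited unscaled. The authors' deposited tables also give a log2 fold change and a p-value per gene, per the file headers, and were used where named.

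Rows of 2212 genes with long names were displaced and put back. Their values of treated ECM 4 differed from the authors' tables in 98 of 107 genes checked, so these genes were fitted with 11 libraries. The 10 genes of the receptor complex had intact rows. One edgeR quasi-likelihood model (edgeR 4.0.16, R 4.3.3) held a mean per group, after TMM scaling and filterByExpr, with Benjamini-Hochberg adjustment over 14624 genes. Alternatives were DESeq2 1.42.0 and its size factors, no filter, a replicate block, the 2 groups alone, omission of displaced genes and of libraries, and, for levels, the longest coding transcript. The last, and list counts under the other settings, were chosen after seeing the data. Replicates differed by more than sampling noise. Tested on simulated counts for ECM against control, the fit recovered 48 of 200 genes changed by log2 1 (13494 genes) and 184 of 200 by log2 2 (13507 genes). The changed genes were drawn from those well counted in control, and the simulated spread was that of the controls alone. These rates therefore do not apply to members with few or no control reads. Ratios were tested by exact permutation with scipy 1.17.1. Of each list up to 4 called genes with at least 1 CPM and no overlap were eligible to be named, by fold, and Fyn, Zbtb7b, Foxp3 and Ctla4 were chosen after their values were seen. Some genes of these rules are not reported here. Coordinates are from GENCODE M21. The members and lists were chosen with earlier results of these data known.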

Additional observations from a re-analysis of the deposited data

Results flagged for a closer look

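Dixon's gap test (critical value 0.829) was run on 40 sets of 4 libraries, which were the levels of each gene in each group with any reads and the 6 ratios in treated ECM and ECM. It picked out 3 libraries. Chance alone picks out about 1 set in 20 where values are normal and sets independent. That rate need not hold here, because many sets were counts near 0 and the ratios reuse the same reads. A set with reads in only 1 library, as for Cd3d in control, is picked out at any count. Cd3d in control 2 lay at 0.495 CPM (8 reads), with 0 reads in the other controls. Cd3g in treated ECM 4 lay at 1.07 CPM (17 reads), with 5, 3 and 4 reads in the other treated libraries. Cd8b1 in ECM 2 lay at 14.3 CPM (182 reads), with 84, 75 and 138 reads in the other ECM libraries, and ECM 2 also had the largest mitochondrial share. Their causes were not tested.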

How the results depend on the processing

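No log2 fold change of the 10 genes turned its sign in 565 values under other settings. Of 190 values in ECM against control 5 lost their call, of 190 in treated ECM against ECM 22 lost and 7 gained one, and of 185 in treated ECM against control 8 lost and 3 gained one. DESeq2 called 9 genes higher in ECM, 8 lower in treated ECM against ECM and 8 higher in treated ECM against control. Over all genes it called 676 lower in ECM, 811 higher and 1351 lower in treated ECM against ECM, and 26 lower in treated ECM against control. DESeq2 called 13 surface and costimulation genes lower in treated ECM than in ECM and 6 receptor signalling genes higher in treated ECM than in control.

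Replicate numbers did not pair the libraries: same-numbered libraries correlated at -0.656 to 0.314 and 1 of 12 correlated best with its own number. With the number as a replicate block, 9 of the 10 genes were called higher in ECM, 2 lower in treated ECM than in ECM (Cd3g and Cd2) and 4 higher in treated ECM than in control. The block left 199 of all genes lower in ECM, 154 higher and 395 lower in treated ECM against ECM, and 3 lower in treated ECM against control. The block left 7 receptor signalling genes and 2 lineage factors lower in treated ECM than in ECM.

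Without control 4, ECM 2 and ECM 3, 1167 genes were lower in ECM, 1050 higher in treated ECM than in ECM, and 46 lower and 1 lineage factor higher in treated ECM than in control. With only the compared groups fitted, 148 genes were lower in ECM, and 16 lower and 2 of the 10 higher in treated ECM against control (5 of the 10 were not tested there), while Zap70 in ECM against control no longer passed (adjusted p = 0.0858, edgeR).

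With 1 library omitted in turn, 2 to 8 of the 10 genes were lower in treated ECM than in ECM. Lists in that comparison had 7 to 15 receptor signalling, 5 to 14 surface, 1 to 4 lineage, 2 to 4 natural killer and 5 to 9 monocyte genes called. Counts lower by over 1.5 times came without treated ECM 1, 2 or 3, for lineage factors also without treated ECM 4 or control 1, for natural killer genes also without ECM 2, and for monocyte genes without treated ECM 4 alone. The 14 surface genes came without control 4. Receptor signalling genes higher in treated ECM than in control numbered 2 to 5 (5 without treated ECM 1). Over all genes the omissions gave 251 to 553 lower in ECM, 185 to 810 higher and 366 to 1311 lower in treated ECM against ECM, and 2 to 13 lower in treated ECM against control. The cause was not tested. A control with 0 reads limits folds to bounds.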

Other observations

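Other marker lists did not all follow the T-cell genes. The neutrophil genes S100a8 and S100a9, which encode the subunits of calprotectin, were the 2 of 6 neutrophil markers tested. S100a9 averaged 1.49 ± 0.498 CPM in treated ECM, 1.19 ± 0.863 CPM in ECM and 0.0785 ± 0.0625 CPM in control (SD, n = 4 each), and was called higher in treated ECM than in control (log2 fold change 4.11 ± 0.69, adjusted p = 0.00462, edgeR). S100a8 averaged 1.01 ± 0.193 CPM in treated ECM and 1.73 ± 0.549 CPM in ECM. Neither gene was called between treated ECM and ECM, and Ly6g, a defining neutrophil marker, had 0 reads in all 3 groups. Of 4 dendritic cell markers tested, Itgax, which encodes the integrin CD11c, was called in all comparisons, at 1.32 ± 0.905 CPM in treated ECM, 4.02 ± 0.886 CPM in ECM and 0.168 ± 0.0795 CPM in control. Of 5 astrocyte markers only Aldh1l1, an enzyme of folate metabolism, was called, in the directions of the T-cell genes. It was lower in treated ECM at 83.9 ± 7.23 CPM than in ECM at 137 ± 26.2 CPM (-0.71 ± 0.19, adjusted p = 0.0388, edgeR). In ECM it was higher than in control (1.16 ± 0.20, adjusted p = 0.00137). Without control 4, ECM 2 and ECM 3, 1 astrocyte marker was called higher and 1 lower in treated ECM than in ECM.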
